A study of Sus scrofa with 12 samples.

Results

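Immediate-early transcription factors are DNA-binding proteins whose genes are switched on within minutes of a stimulus, without new protein synthesis. The members described here were ATF3, FOS, JUN, EGR1 and MYC, taken as every probe set on the array whose symbol in the platform annotation was one of these names. They are 5 of the 6765 genes named by a probe set with a single symbol. There were 7 such probe sets among 23999 after control probe sets were set aside. EGR1 had 3 probe sets and each of the other genes had 1. All 7 passed the filter on dim signals, which kept 16166 probe sets.

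RNA came from the longissimus dorsi, the long back muscle, of Meishan pigs, a Chinese breed raised under ordinary commercial feeding. The groups were fetuses at 65 days post coitus (dpc) and pigs at 3, 60 and 120 days after birth, with 3 arrays per stage, which the labels call biological replicates. Littermate fetuses of a sow counted as 1 individual, all pigs were killed at a slaughterhouse, and the muscle was frozen in liquid nitrogen. The labels give no treatment, sex, litter after birth, or time between death and freezing. As far as the labels say the stages differ in age, and the counting of littermates as 1 individual concerns the fetal stage only.

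FOS and JUN belong to the basic leucine zipper family and pair as the AP-1 complex, and ATF3 is a relative that pairs with JUN proteins and is known as a stress-induced repressor. EGR1 is a zinc finger protein that responds to serum and growth factors, and MYC pairs with MAX to drive genes of growth and ribosome production. In skeletal muscle these genes are known to respond to contraction, injury and stress, and their transcripts are short-lived.

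Muscle fibre markers were bright on every array. Of 10 such markers 6 were listed, and their summed intensity was 24084 to 33561 in the fetus and 41058 to 48829 after birth. Markers of satellite cells and myoblasts (4 of 6 listed) summed to 559 to 853 in the fetus and 172 to 411 after birth, and fibroblast markers (4 of 6 listed) to 6704 to 10457 and 2640 to 5020. The satellite cell markers NCAM1 and PAX3 and the fibroblast marker COL3A1 did not follow their sums. No listed marker was at 0. Median intensity was 49.1 to 52.6 per array, arrays of one stage correlated with r of 0.905 to 0.985 across probe sets, and no array duplicated another. The 3-prime to 5-prime ratio of the actin control probe sets, a measure of RNA integrity and labelling, averaged 2.45 ± 0.168 (SD, n = 3), 3.61 ± 1.06, 5.10 ± 1.17 and 5.08 ± 0.896 in order of age. The same ratio of the GAPDH controls went the other way, at 1.46 ± 0.0168, 1.01 ± 0.0207, 0.954 ± 0.00991 and 0.940 ± 0.0210. In muscle tissue a smaller number of cells of one type and less RNA per cell cannot be told apart.

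ATF3 was higher after birth than before, and its level after birth varied widely between pigs. Its intensity was 71.6, 124 and 160 on replicates 1, 2 and 3 of the fetal stage, and 1792, 2536 and 225 at 3 days. It was 262, 630 and 1618 at 60 days and 215, 1313 and 797 at 120 days. Every array after birth was above every fetal array, but replicate 3 at 3 days and replicate 1 at 60 and 120 days were the arrays nearest to the fetal range. The stage means were 118 ± 44.3 (SD, n = 3), 1517 ± 1180, 836 ± 701 and 775 ± 550 in order of age. The order of the means was 3, 60 and 120 days and then the fetus, and the 3 stages after birth overlapped one another.

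Changes were tested in limma on log2(intensity + 21), where 21 damps noise at the dim end and makes the change of dim probe sets look smaller, with Benjamini-Hochberg adjustment over all 16166 probe sets and an adjusted p under 0.05 as the threshold. From 65 dpc to 3 days ATF3 rose by 2.96 ± 0.88 (SE) on the log2 scale, a 7.77-fold change, with a 95% confidence interval of 1.05 to 4.86 and an adjusted p of 0.0172 in limma. At this step 1 of the 7 probe sets was called, against 43% of all probe sets (20.3% higher and 22.6% lower), and the arrays of 1 of 7 did not overlap, against 53% of all. Omitting 1 array ended the call in 3 cases. These were fetal replicate 1, where limma gave an adjusted p of 0.0561 and a change of 2.69, and replicates 1 and 2 at 3 days, where it gave 0.0665 with 2.56 and 0.0734 with 2.31. Without replicate 3 at 3 days, the low array, the change was 4.002 (adjusted p = 0.00195).

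The later stages were also set against the same 3 fetal arrays, so these comparisons share their controls. ATF3 was 2.32 ± 0.88 higher on the log2 scale at 60 days (adjusted p = 0.0528) and 2.24 ± 0.88 higher at 120 days (adjusted p = 0.0507), and neither passed the threshold in limma although the arrays did not overlap. At 60 days it was the 1 member of 7 whose arrays did not overlap the fetal ones, against 45.8% of all probe sets. Of 25 other settings 8 brought the difference at 60 days under the threshold and 12 that at 120 days. Array weights gave an adjusted p of 0.0243 and 0.00846, only the 6 arrays compared 0.0189 and 0.0107, and quantile normalization 0.0483 and 0.0386. Dropping replicate 3 at 3 days, an array of neither comparison, gave 0.0169 and 0.0159, while the changes stayed at 2.32 and 2.24. In the other direction, leaving out 1 array took the adjusted p in limma as high as 0.189 at 60 days and 0.179 at 120 days. The changes went as low as 1.67 and 1.71. Between stages after birth the ATF3 differences were -0.64 from 3 to 60 days (95% confidence interval -2.54 to 1.26) and -0.08 from 60 to 120 days (-1.98 to 1.83). Both intervals include rises and falls of more than 2-fold, so these data do not show whether ATF3 stayed at one level after birth. The summed muscle fibre markers and the actin ratio were also higher at the later stages than in the fetus and the GAPDH ratio lower, and their part in the ATF3 result was not tested.

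**Figure D1:**
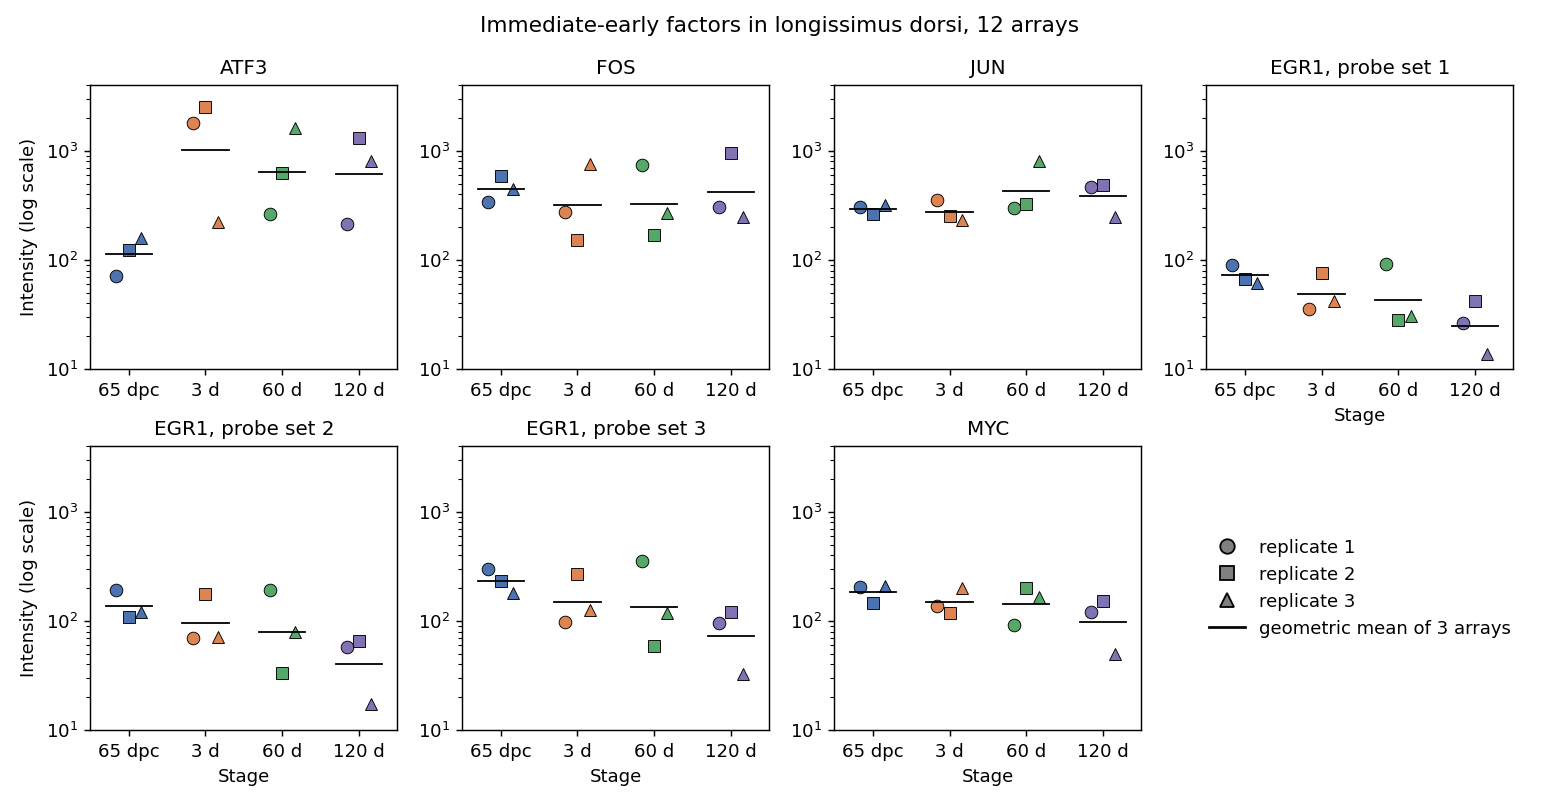
Intensity on a log scale of the 7 probe sets (panels) on the 12 arrays, by stage (65 dpc, and 3, 60 and 120 days after birth). Symbols mark the replicate and the bar is the geometric mean of the 3 arrays of a stage. ATF3 lies between 71.6 and 160 in the fetus and between 215 and 2536 later, and the 3 EGR1 panels show the same order of arrays at 120 days.

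FOS showed no stage difference that passed the threshold, and its arrays overlapped at every pair of stages. With array weights a rise of 1.401 from 3 to 120 days passed (adjusted p = 0.0319 in limma), where the unweighted change was 0.37 (0.828). The intensities were 340, 585 and 448 at 65 dpc, 275, 151 and 762 at 3 days, 739, 168 and 269 at 60 days, and 308, 945 and 248 at 120 days. Each stage after birth held 1 high array, which was replicate 3, then 1, then 2, and the other arrays of those stages lay below the lowest fetal array. The stage means were 457 ± 123 (SD, n = 3), 396 ± 323, 392 ± 305 and 500 ± 386. The limma change from 65 dpc to 3 days was -0.45 with a 95% confidence interval of -1.82 to 0.91 (adjusted p = 0.584), from 3 to 60 days 0.02 (-1.34 to 1.38), and from 60 to 120 days 0.34 (-1.02 to 1.71). From the fetus to 120 days it was -0.09 on the log2 scale while the mean intensity was higher at 120 days, where 1 array read 945, and quantile normalization turned its sign to 0.014.

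JUN, the partner of FOS in AP-1, had a narrow range in the fetus and at 3 days and a wider one later. Its intensities were 305, 261 and 318 at 65 dpc and 350, 252 and 233 at 3 days. They were 298, 326 and 800 at 60 days and 467, 490 and 248 at 120 days. Replicate 3 at 60 days stood far above the rest, replicates 1 and 2 at 120 days were next, and the remaining 9 arrays lay between 233 and 350. The means of 295 ± 29.6 (SD, n = 3), 278 ± 62.8, 475 ± 282 and 402 ± 133 overlapped at every pair of stages. The largest limma difference between adjacent stages was 0.61 from 3 to 60 days (95% confidence interval -0.16 to 1.37, adjusted p = 0.430). From 65 dpc to 3 days it was -0.09 (-0.86 to 0.68), which quantile normalization turned to 0.070, and from the fetus to 120 days 0.37 (-0.40 to 1.14), which centring on the hybridization controls turned to -0.066. With array weights JUN was 0.67 higher at 120 than at 3 days (adjusted p = 0.0406 in limma), where the unweighted difference was 0.46 (0.546).

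EGR1 was lower at 120 days than in the fetus on each of its 3 probe sets. Probe set 3, the brightest, read 299, 231 and 181 at 65 dpc, 97.4, 271 and 125 at 3 days, 351, 59.4 and 119 at 60 days, and 95.1, 120 and 32.9 at 120 days. The fetal arrays were all above the arrays at 120 days, while 3 and 60 days each held 1 array in or above the fetal range and 2 below it. Probe set 2 read 191, 109 and 121 at 65 dpc, 69.6, 178 and 70.9 at 3 days, 194, 33.7 and 78.5 at 60 days, and 58.2, 65.1 and 17.2 at 120 days. Probe set 1 read 90.8, 67.4 and 62.1, then 35.7, 76.3 and 42.3, then 92.1, 28.4 and 30.7, and finally 26.5, 42.4 and 13.7. The same array was highest on all 3 probe sets at each stage after birth, namely replicate 2 at 3 and 120 days and replicate 1 at 60 days, and the probe sets correlated with each other at r of 0.957 to 0.985 over the 12 arrays. They read the same RNA samples and are not independent measurements. After birth probe set 1 was below the 40th percentile of its array on 1 array at 3 days and on 2 at each of 60 and 120 days, so its changes rest on dim signals. Probe sets 2 and 3 were also below it on replicate 3 at 120 days, at percentiles of 17.3 and 35.9. Probe set 2 was below it on replicate 2 at 60 days too (38.6). The low end of their changes therefore rests in part on dim signals as well.

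From 65 dpc to 120 days EGR1 fell by 0.99 ± 0.32 (SE) on the log2 scale on probe set 1 (95% confidence interval -1.68 to -0.30, adjusted p = 0.0214 in limma). It fell by 1.30 ± 0.47 on probe set 2 (-2.33 to -0.28, adjusted p = 0.0376) and by 1.404 ± 0.52 on probe set 3 (-2.54 to -0.27, adjusted p = 0.0416), which are 1.99-fold, 2.47-fold and 2.65-fold differences. These were the 3 calls among the 7 probe sets in this comparison, against 48.4% of all probe sets (23.4% higher and 25% lower). The arrays of 4 of the 7 did not overlap, against 60.7% of all. Without fetal replicate 1 the adjusted p values were 0.0746, 0.121 and 0.118, and without replicate 3 at 120 days 0.0947, 0.157 and 0.172, so all 3 calls were lost with either array. Probe set 2 also lost its call without fetal replicate 2 (0.0550), fetal replicate 3 (0.0557) or replicate 1 at 120 days (0.0500061). Probe set 3 lost it without fetal replicate 2 (0.0876), replicate 1 at 120 days (0.0603) or replicate 3 at 60 days (0.0520). With quantile normalization the adjusted p was 0.0551 for probe set 2 and 0.0673 for probe set 3. The summed fibroblast markers (6704 to 10457 in the fetus, 2713 to 4270 at 120 days) and satellite cell markers (559 to 853, and 240 to 278) were lower at 120 days too, as was the GAPDH ratio (1.46 and 0.940). Within these sums MYF5, MYOD1, DCN, LUM and COL1A2 were lower on every array, and NCAM1 overlapped (75.2 to 96.7, and 67.2 to 104.6). COL3A1 (41.4 to 55.1, and 55.2 to 112.4) and the dim PAX3 (13.25 to 17.88, and 20.94 to 22.53) were higher. The summed fibre markers (24084 to 33561, and 47877 to 48829) and the actin ratio (2.45 and 5.08) were higher, and the part of all these in the EGR1 result was not tested.

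None of the 3 adjacent steps passed the test for EGR1. The changes from 65 dpc to 3 days were -0.41, -0.41 and -0.57 on probe sets 1, 2 and 3, with adjusted p of 0.314, 0.503 and 0.402 in limma. From 3 to 60 days they were -0.09, -0.17 and -0.09, although the mean intensity of probe set 3 was slightly higher at 60 days (177 ± 154, SD, n = 3) than at 3 days (165 ± 93.6). From 60 to 120 days they were -0.49, -0.72 and -0.75, with adjusted p of 0.820, 0.821 and 0.828. At 60 days against the fetus the changes were -0.50, -0.58 and -0.65 (adjusted p = 0.227, 0.347 and 0.338 in limma). Without replicate 1 at 60 days, the high array, probe sets 1 and 3 passed at -0.89 and -1.26 (0.0206 and 0.0475), and probe set 1 also passed when centred on the hybridization controls (-0.87, 0.0436). With array weights all 3 probe sets were lower at 120 than at 3 days (-0.74, -1.19 and -1.11, adjusted p = 0.0227, 0.0120 and 0.0284), where unweighted adjusted p values were 0.353, 0.339 and 0.435. The order of the stage means on probe sets 1 and 2 was the fetus, 3, 60 and 120 days, and neighbours in that order did not differ beyond their spread.

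MYC had the lowest mean at 120 days, and no comparison of its stages passed the threshold. Its intensities were 204, 147 and 209 at 65 dpc and 137, 118 and 202 at 3 days. They were 91.1, 199 and 165 at 60 days and 121, 153 and 49.5 at 120 days. At 120 days replicates 1 and 3 lay below all fetal arrays and replicate 2 within the fetal range. The means were 187 ± 34.5 (SD, n = 3), 152 ± 44.2, 152 ± 55.3 and 108 ± 52.9. Between 65 dpc and 120 days the limma change was -0.77 (95% confidence interval -1.51 to -0.04, adjusted p = 0.0771). It became -1.21 (adjusted p = 0.00804) when arrays were centred on the hybridization controls, and -1.04 (adjusted p = 0.0386) without replicate 2 at 120 days. The 3 adjacent changes were -0.28 (-1.01 to 0.46), -0.03 (-0.77 to 0.71) and -0.47 (-1.20 to 0.27).

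**Figure D2:**
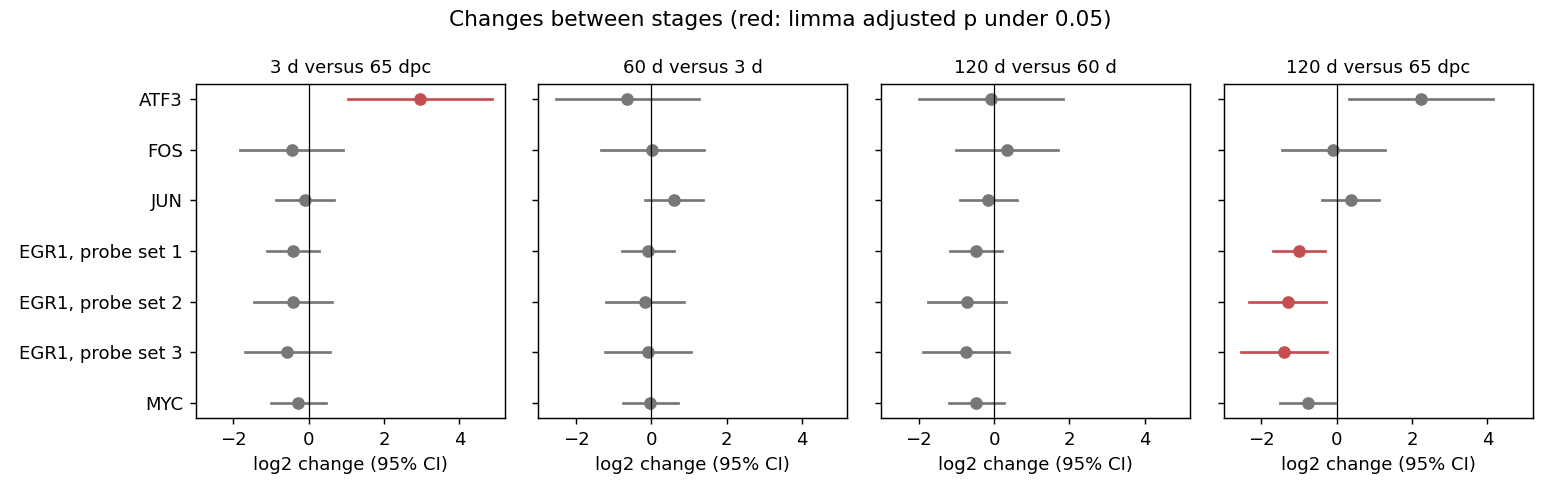
Change in log2(intensity + 21) between stages for the 7 probe sets, with 95% confidence intervals from limma, for the 3 adjacent steps and for 120 days against 65 dpc. Red marks an adjusted p under 0.05, which is reached by ATF3 at 3 days against 65 dpc (2.96) and by the 3 EGR1 probe sets at 120 days against 65 dpc (-0.99, -1.30 and -1.404).

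Across all 4 stages the limma F test called 0 of the 7 probe sets, against 46.9% of all probe sets. At an unadjusted p under 0.05 there was 1 of 7, against 55.4% of all, namely ATF3, with an adjusted p of 0.0547, and the others had adjusted p from 0.101 for EGR1 probe set 1 to 0.870 for FOS. From 3 to 60 days limma called 0 of 7, against 1.53% of all, and from 60 to 120 days 0 of 7, against 0%, with 0 of 7 at an unadjusted p under 0.05 in both, against 16.6% and 6.32% of all. The 2 remaining comparisons called 0 members each, against 39.1% of all probe sets for 60 days versus the fetus and 4.42% for 120 days versus 3 days. The unadjusted p was under 0.05 for 1 of 7, ATF3, in the first of these, against 48.7% of all, and for 0 of 7 in the second, against 19.4%. Against the fetus it was under 0.05 for 1 of 7 at 3 days (51.3% of all), again ATF3, and for 5 of 7 at 120 days (55.1% of all), namely ATF3, MYC and the 3 EGR1 probe sets. The median change over the 7 probe sets was -0.41 from 65 dpc to 3 days and -0.77 from 65 dpc to 120 days, where the medians over all probe sets were -0.00045 and 0.0036. Centring on the 27 hybridization control probe sets moved the median of all probe sets from 65 dpc to 3 days to -0.28, and the calls to 1253 higher and 5338 lower. From 65 dpc to 120 days it moved to -0.43, with 1192 higher and 7185 lower. On that scale the member calls at 3 days were still 1 and at 120 days 4, the fourth being MYC.

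What the 5 genes shared was a wide spread among arrays of the same stage. The within-stage SD, pooled over the 4 stages on the log2 scale, was 1.31 for ATF3, 0.92 for FOS, 0.48 for JUN and 0.48 for MYC. It was 0.46, 0.70 and 0.77 for EGR1 probe sets 1 to 3. The median over all probe sets that passed the filter was 0.23, and the members lay between its 89.9 and 99.8 percentiles. ATF3 exceeded 99.8% of all probe sets and FOS 99.0%, while JUN exceeded 91.1% and MYC 90.7%. Among probe sets of similar mean level the positions were 99.8% for ATF3, 97.9% for FOS, 82.5% for JUN, 89.1% for MYC and 96.1% to 98.2% for EGR1. These are descriptions, and the EGR1 probe sets count the same transcript more than once.

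**Figure D3:**
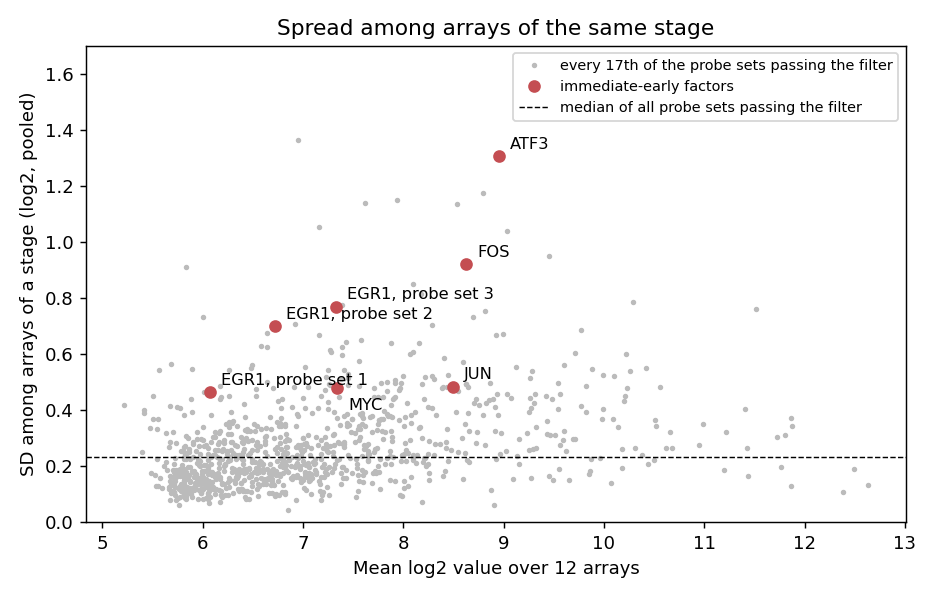
Within-stage SD on the log2 scale, pooled over 4 stages, against the mean log2 value over 12 arrays, for the 7 member probe sets (red, labelled) and every 17th probe set that passed the filter (grey). The dashed line is the median of all probe sets, 0.23, and all 7 members lie above it, with ATF3 at 1.31 and FOS at 0.92.

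The spread was not even across age. All 7 probe sets had their smallest within-stage SD in the fetus, a pattern found in 16.0% of all probe sets. The largest SD was at 60 days for JUN and the 3 EGR1 probe sets, at 3 days for ATF3 and FOS, and at 120 days for MYC. For FOS the highest fetal array was 1.72 times the lowest, and the same ratio was 5.04, 4.39 and 3.82 at 3, 60 and 120 days. For ATF3 these ratios were 2.23, 11.3, 6.18 and 6.11, and for JUN 1.22, 1.502, 2.68 and 1.98. Each fetal sample stands for the fetuses of a sow, and whether several fetuses were pooled into a sample is not given in the sources used here.

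The arrays on which the genes were high differed between genes at 3 and 60 days and were the same at 120 days. At 120 days replicate 2 was the highest array for all 7 probe sets, which held for 25.4% of all probe sets. Replicate 3 was the lowest for 6, of which 3 read EGR1, against 37.6% of all probe sets, with ATF3 lowest on replicate 1. The deviations of replicate 2 from the stage mean were 1.07 for ATF3, 1.13 for FOS, 0.33 for JUN, 0.53 for MYC and 0.43 to 0.56 for EGR1. At 60 days FOS and EGR1 were highest on replicate 1 (deviations of 1.13 and, for probe set 3, 1.21), where ATF3, JUN and MYC were lowest (-1.25, -0.50 and -0.57). ATF3 and JUN were highest on replicate 3 of that stage, at 1.29 and 0.87.

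At 3 days FOS and ATF3 ran opposite to each other. FOS was 1.195 above its stage mean on replicate 3 and 0.99 below it on replicate 2 (deviation -0.99), and ATF3 was -2.09 on replicate 3 and 1.29 on replicate 2. EGR1 was highest on replicate 2 with ATF3, MYC on replicate 3 with FOS, and JUN on replicate 1. In the fetus EGR1 was highest on replicate 1, FOS on replicate 2, and ATF3, JUN and MYC on replicate 3. The summed markers of macrophages and other leukocytes (5 of 8 listed) were highest on replicate 3 at each stage, at 1028, 740, 408 and 571. The other arrays read 158 to 366. The listed marker CD163 made up most of each replicate 3 sum. Only CD163 and PTPRC were highest on replicate 3 at every stage. CD14 was not highest there at 60 days, nor was CD3E at 3 or 60 days. ITGAM was lowest on replicate 3 at 3 and 60 days. The actin ratio was lowest on replicate 3 of each stage, at 2.32, 2.58, 3.85 and 4.17, and highest at 60 days on replicate 1 (6.18) and at 120 days on replicate 2 (5.96). The part of either in the array-to-array differences was not tested.

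**Figure D4:**
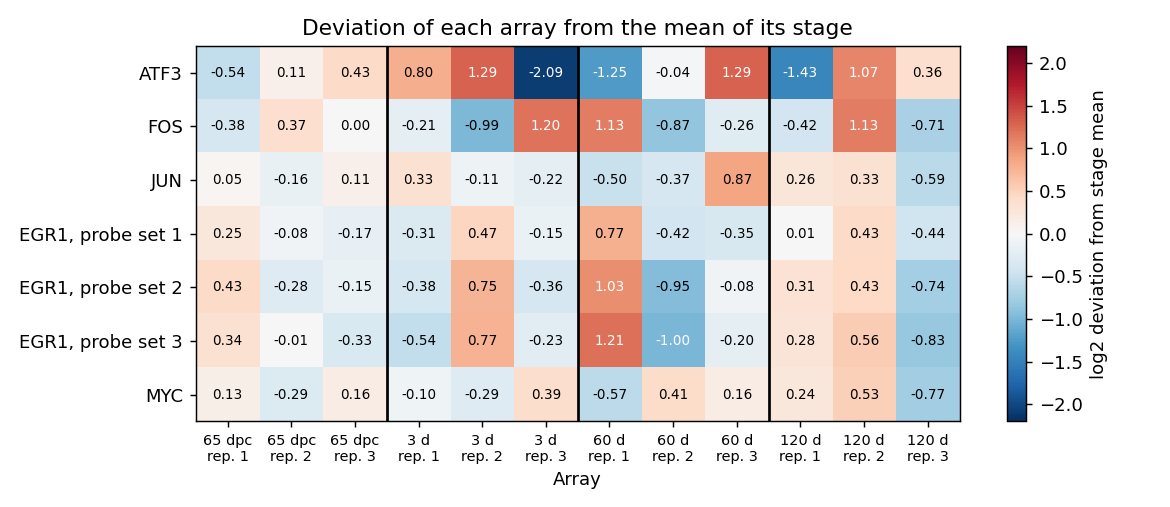
Deviation of each array from the mean of its stage on the log2 scale, for the 7 probe sets (rows) and 12 arrays (columns, grouped by stage), with the value printed in each cell. Red is above and blue below the stage mean. Replicate 2 at 120 days is above its mean in every row, and at 3 days replicate 3 reads -2.09 for ATF3 and 1.195 for FOS.

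Genes whose patterns were most like the members were named by Pearson r over the 12 arrays on the log2 scale among 5519 other genes. These r values are descriptions from the same libraries. For ATF3 they were NR5A1 (r = 0.94), a nuclear receptor with a dim probe set whose stage means were 36.4 to 62.4, TNFRSF12A (0.91), the receptor of the cytokine TWEAK, and HBEGF (0.90), a growth factor of the EGF family. TNFRSF12A averaged 149 in the fetus and 857, 591 and 489 at 3, 60 and 120 days. For FOS, DUSP1 (0.70), a phosphatase that switches MAP kinases off and is itself an immediate-early gene, RBM19 (0.70) and the kinase MAPK8 (0.70) came first. MAPK8 was dim, at 25.2 to 42.1 over the 12 arrays. For JUN the leading genes were CREM (0.84), a factor of the cyclic AMP response, THBD (0.82), which encodes thrombomodulin, and TAGLN (0.80), an actin-binding protein.

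For EGR1 probe set 3 the nearest patterns were SRSF3 (r = 0.84), a splicing factor, HNRNPA3 (0.83), an RNA-binding protein, and ZBED5 (0.83). SRSF3 averaged 1325, 1065, 918 and 818 from the fetus to 120 days. For MYC they were NELFE (0.81), a subunit of the complex that pauses RNA polymerase, RNH1 (0.81), an inhibitor of ribonucleases, and GTF2F1 (0.78), a general transcription factor. When stage means were first subtracted, so that only differences between arrays of a stage counted, the nearest to ATF3 were H2AFY (0.96), TACC3 (0.93) and LPCAT3 (0.90). TACC3 passed the filter only through the fetal arrays, at 48.1 to 50.7. After birth it read 14.4 to 24.5, below the 40th percentile of the arrays (33.9 to 37.3), so its likeness there rests on dim signals. FOS was then closest to PDE4B (0.95), which degrades cyclic AMP, DCAF10 (0.91) and CDS1 (0.85), and JUN to PDLIM7 (0.94), CREM (0.93) and THBD (0.93). CDS1 was dim after birth, at 27.3 to 46.5. EGR1 probe set 3 was closest to PC (0.90), FOLH1B (0.90) and LAMB1 (0.88), and MYC to ZCCHC24 (0.94), RRP9 (0.90) and NPC2 (0.88).

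Around the 5 genes stand their partners, their upstream kinases and the genes they act on, listed in 8 groups with 79 distinct measured genes, each represented by its brightest probe set. MAX, FOSB, JUNB, JUND and SRF were among the listed genes without a probe set named for them alone. At the first step, to 3 days, 12 of the 79 rose and 13 fell, which is 31.6% called, against 41.7% of all 5765 genes with a probe set (22.7% higher and 19% lower). Centring on the hybridization controls left 6 of the 79 higher and 19 lower, and array weights gave 25 higher and 20 lower. Of 3 measured relatives of AP-1, 1 rose and none fell, with a median change of 0.41 against 0.066 over all genes. The riser was ATF4, the stress-response factor that acts upstream of ATF3, whose intensity averaged 991 ± 57.9 (SD, n = 3) before birth and 2010 ± 777 at 3 days, a log2 change of 0.94 (adjusted p = 0.00740 in limma). Centring on the hybridization controls ended that call (0.66, adjusted p = 0.0673).

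Of 10 other immediate-early transcription factors 0 rose and 3 fell, with a median of -0.07, where 41.7% of all genes were called (22.7% higher and 19% lower). HES1, an effector of Notch signalling, fell by 1.24 on the log2 scale, ID1, an inhibitor of bHLH factors such as MYOD, by 1.09, and KLF4, a zinc finger factor, by 0.96. KLF4 missed the threshold when fetal replicate 2 or 3 was dropped (adjusted p = 0.0523 and 0.0646) or replicate 2 at 3 days (0.0933). ID1 missed it without any 1 of the 3 fetal arrays (0.0734 to 0.1001), without replicate 3 at 3 days (0.169) or without any 1 of the 3 arrays at 120 days (0.0500096 to 0.0575), and with the replicate number as a block (0.0646).

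Of 17 effectors and feedback genes 2 rose and 4 fell, with a median of -0.08, where 41.7% of all genes were called (22.7% higher and 19% lower). HBEGF rose by 1.80 (52.6 ± 22.5 in the fetus, 256 ± 156 at 3 days, SD, n = 3, adjusted p = 0.0108 in limma). RGS2, a brake on G protein signalling, fell by 2.37, DUSP6, a phosphatase that switches ERK off, by 1.38, and RHOB, a small GTPase, by 1.24. Of 11 upstream kinases and factors 1 rose and 1 fell, with a median of 0.17. CREB1, which binds the FOS promoter, rose by 0.53, a call that ended with centring on the hybridization controls (0.25, adjusted p = 0.128). It read 17.8 to 22.0 in the fetus and 31.8 to 43.1 at 3 days, where the 40th percentile of the arrays was 33.9 to 37.3. CREB1 thus passed the filter only through arrays after birth, where it was higher, and its rise rests on dim signals. The ribosomal S6 kinase RPS6KA1 had a change of -0.85.

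Of 16 measured genes of a stress-response list drawn up for ATF3, 6 rose and 0 fell, with a median of 0.64. The list mixes ATF4 and related factors with heat-shock and other stress genes, and whether these act with ATF3 was not tested. Of all genes 41.7% were called at this step (22.7% higher and 19% lower). BAG3, a co-chaperone of protein quality control, rose by 2.83 (228 ± 48.8 in the fetus, 1788 ± 599 at 3 days, SD, n = 3, adjusted p = 1.67833e-05 in limma). The heat-shock proteins HSPH1 and HSPB1 rose by 1.76 and 1.42, and ATF4, counted above among the AP-1 relatives too, was the fourth. HSPH1 lost its call without replicate 1 at 3 days (adjusted p = 0.0694). On the hybridization-control scale 3 of the list rose and 2 fell. The list was drawn up with earlier results on heat-shock genes of these samples known, so it is no independent evidence of its direction.

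For MYC, 6 genes of its network and 13 genes known to respond to it were measured. From 65 dpc to 3 days 41.7% of all genes were called (22.7% higher and 19% lower). In the network 0 rose and 2 fell, with a median of -0.25: the MYC-binding proteins MYCBP2, at -0.93, and MYCBP, at -0.37. MYCBP read 42.9 to 50.2 in the fetus and 26.8 to 34.2 at 3 days, where the 40th percentile of the arrays was 33.9 to 37.3. It passed the filter through the fetal arrays, where it was higher, so its fall rests on dim signals. Dropping replicate 2 of the fetus or of 3 days took MYCBP to an adjusted p of 0.0699 or 0.0874. Of the responsive genes 3 rose and 1 fell, with a median of 0.47, and the list was not split by the direction of the response to MYC. TFRC, the transferrin receptor that brings iron into cells, rose by 3.18, from 40.8 ± 3.74 in the fetus to 557 ± 169 at 3 days (SD, n = 3). NME1, a nucleoside diphosphate kinase, rose by 1.05, LDHA, lactate dehydrogenase, by 0.89, and CCND2, the cell-cycle regulator cyclin D2, fell by 2.10. The NME1 call had an adjusted p of 0.0449 in limma and was lost in 8 of the 12 fits without a single array, namely those that dropped fetal replicate 2 or 3, replicate 1 or 3 at 3 days, the second array at 60 days, or any array at 120 days (0.0506 to 0.167). Array weights took the NME1 change to 0.097 (adjusted p = 0.819) and centring on the hybridization controls to 0.77 (0.124), and the call was also lost with a pseudocount of 1 (0.0508) or only the 6 arrays compared (0.0797).

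The EGR1 cofactors of the list, NAB1 and NAB2, had no probe set named for them alone. Of the 6 measured genes known to respond to EGR1, 0 rose and 2 fell from 65 dpc to 3 days, with a median of -0.68. Of all genes 41.7% were called at this step (22.7% higher and 19% lower). LOX, which crosslinks collagen, fell by 1.9999, from 309 ± 93.9 (SD, n = 3) to 59.9 ± 12.6, and IGF2, a fetal growth factor, by 0.94, from 2494 ± 473 to 1355 ± 519. Dropping fetal replicate 2 or replicate 1 at 3 days took IGF2 to an adjusted p of 0.0827 or 0.0971, and array weights took its change to -0.55 (adjusted p = 0.0827). At this step EGR1 itself had passed no test. The summed fibroblast markers fell over the same interval, from 6704 to 10457 in the fetus to 2640 to 3899 at 3 days, although COL3A1 and LUM overlapped between these stages. The part of the fibroblast markers in the change of LOX was not tested.

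From 3 to 60 days 4 of the 79 genes fell and 0 rose, which is 5.06% called, against 1.49% of all genes. TFRC fell by 2.84, NME1 by 2.04 and CCND2 by 1.25, all 3 of the MYC-responsive group, and IGF2 by 2.02. MYC itself changed by -0.03 at this step. The calls were lost without replicate 1 at 3 days for TFRC (adjusted p = 0.0811), NME1 (0.107) and CCND2 (0.138), and without replicate 2 at 3 days for TFRC (0.0643) and CCND2 (0.134). NME1 also lost its call without replicate 3 at 3 days (0.0569) or replicate 1 at 60 days (0.0903), and CCND2 without any 1 of the 3 arrays at 60 days (0.0592 to 0.107) or replicate 2 at 120 days (0.0622). When only the 6 arrays compared were fitted, the adjusted p values were 0.0657 for IGF2 and 0.0659 for the others. From 60 to 120 days 0 of the 79 genes were called, against 0% of all genes.

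**Figure D5:**
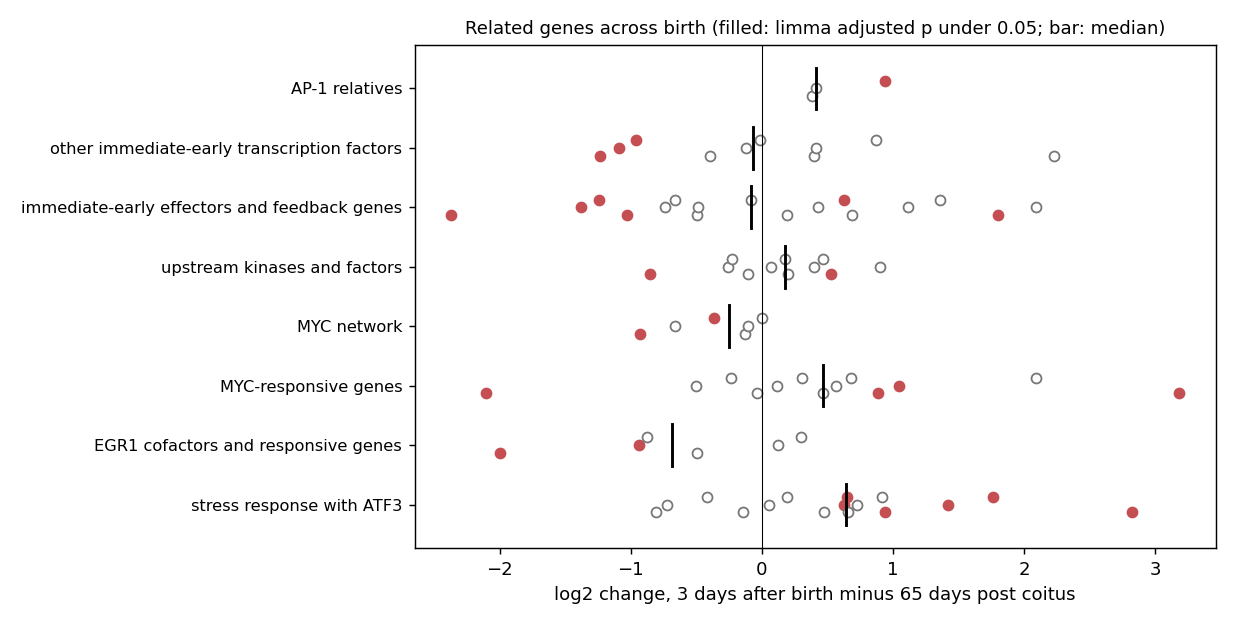
Change in log2(intensity + 21) from 65 dpc to 3 days after birth for the measured genes of 8 related groups, 1 point per gene, offset vertically for legibility. Filled points passed an adjusted p under 0.05 in limma and the bar is the group median. The medians run from -0.68 for EGR1 cofactors and responsive genes, of which no cofactor was measured, to 0.64 for the stress genes. TFRC (3.18) and BAG3 (2.83) are the points farthest to the right.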

How the data were processed

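Muscle RNA was extracted with Trizol, labelled with biotin and hybridised to Affymetrix porcine arrays, per the labels' protocols, with 12 arrays in 4 stages. The deposited intensities are linear, and the submitters' processing notes name GCOS 1.4. For summary method and scaling no statement was given in the sources used here, and detection calls were not used. Symbols came from a 2016 platform annotation. It named 1 gene for 10069 probe sets and several for 198, and did not list 13732. The 7 member probe sets had Entrez identifiers found in the RefSeq table, and 0 symbols changed. No sequence or genome was used.

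From the deposited intensities log2(value + 21) was computed, 21 being the 25th percentile of all values. Of 24123 probe sets 124 were controls. A probe set was kept when above the 40th percentile of its array on at least 3 arrays (16166, 67.4%). All arrays entered 1 limma fit with a mean per stage and a variance trend (8 residual, 4.26 prior degrees of freedom), two-sided. Nothing but the label says that replicates came from separate animals, so p values measure the spread between these samples. Precision is limited by having 3 arrays per stage.

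The members, lists and comparisons were chosen with earlier results of these data known. Named genes were every member, up to 4 called genes per list and step with the largest change, and the 3 genes closest in r to each member. The fit was tested on simulated data and recovered 63%, 59% and 67% of 2-fold changes at the 3 adjacent steps, and 91%, 91% and 96% of 4-fold changes. These rates are not for the members, whose within-stage SD was 0.46 to 1.31 against a median of 0.23 over all probe sets. Recovery at the spread of the members was not tested. Alternatives were pseudocounts of 1 and 51, no filter or the 60th percentile, array weights, other variance models, centring on medians or on hybridization controls, quantile normalization, 1 probe set per gene, fits of only the 6 arrays compared, a replicate block, and leaving each array out. Analyses used R 4.3.3 with limma 3.58.1, and NumPy 2.4.6, pandas 2.3.3 and matplotlib 3.10.9 in Python 3.11.15.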

Additional observations from a re-analysis of the deposited data

How the results depend on the processing

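The alternatives for 60 and 120 days against 65 dpc, for 120 against 3 days and for the related groups were added after seeing the data. The rise of ATF3 from 65 dpc to 3 days kept its call under all 13 settings that left out no array, at 2.68 to 4.25 on the log2 scale, and the cause of the changes below was not tested. Across the 4 stages the 7 member probe sets had 0 calls, but 1 with a pseudocount of 1, 1 with quantile normalization, 4 with centring on the hybridization controls and 5 with array weights. Quantile normalization took EGR1 from 65 dpc to 120 days to -1.22 and -1.28 on probe sets 2 and 3, which ended both calls. It turned the sign of JUN from 65 dpc to 3 days (0.070), of FOS from 3 to 60 days (-0.0091) and from 65 dpc to 120 days (0.014), and of ATF3 from 60 to 120 days (0.017). Centring on the hybridization controls turned FOS from 3 to 60 days (-0.068) and JUN from 65 dpc to 120 days (-0.066), and array weights turned MYC from 3 to 60 days (0.24) and FOS from 65 dpc to 120 days (0.46). Array weights also called 5 of the 7 probe sets from 3 to 120 days, where there were 0, namely FOS, JUN and the 3 of EGR1.

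Among all probe sets the 247 calls from 3 to 60 days became 926 with array weights, 39 with only the 6 arrays compared and 81 with 1 probe set per gene. From 60 to 120 days 0 calls became 1 with no filter and 1 with 1 probe set per gene. With 1 probe set per gene, which tests fewer features, there were 2596 across the stages, 2361 from 65 dpc to 3 days and 2683 from 65 dpc to 120 days, and 1 member call in the last. With the replicate number as a block the calls from 3 to 60 days were 161, and ATF3 at 120 days against 65 dpc reached an adjusted p of 0.0475. Under the same setting ID1 lost its call from 65 dpc to 3 days (0.0646). Same-numbered arrays correlated at -0.42 to 0.30 after stage means were removed (median 0.090), over 0.1 in 8 of 18 pairs. Differently numbered arrays correlated at -0.41 to 0.65 (median -0.041), over 0.1 in 11 of 36 pairs. Of 12 arrays 3 correlated best with their own number. These values do not settle whether the numbers stand for something shared. Replicate 3 had the lowest actin ratio and the highest leukocyte sum at each stage, and the labels do not say what the numbers mean.

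Leaving out 1 array at a time gave 0 to 4 member calls across the stages, 0 to 1 from 65 dpc to 3 days, 0 to 3 from 65 dpc to 60 days and 0 to 4 from 65 dpc to 120 days. Among all probe sets it gave 75 to 297 calls from 3 to 60 days and 0 to 5 from 60 to 120 days. From 65 dpc to 3 days the changes were 2.31 to 4.002 for ATF3, -1.05 to 0.042 for FOS and -0.26 to 0.017 for JUN. From 3 to 60 days they were -1.68 to 0.0065 for ATF3, -0.55 to 0.62 for FOS and -0.23 to 0.26 for MYC. For EGR1 probe sets 1 to 3 they were -0.48 to 0.14, -0.68 to 0.31 and -0.69 to 0.41. From 60 to 120 days they were -0.70 to 0.64 for ATF3, -0.22 to 0.91 for FOS and -0.39 to 0.29 for JUN. Against 65 dpc FOS ran from -0.998 to 0.0052 at 60 days and from -0.65 to 0.27 at 120 days. EGR1 at 120 days ran from -1.21 to -0.77, -1.52 to -0.93 and -1.68 to -0.99 on probe sets 1 to 3. From 3 to 120 days ATF3 ran from -1.76 to 0.00015 and FOS from -0.20 to 0.96.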

Other observations

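Other genes of the 8 related groups also spread widely among arrays of a stage. The within-stage SD of 26 of the 79 measured genes (32.9%) lay above the 90th percentile of all probe sets, and their median percentile was 81.9. The genes named next were chosen after their values were seen. NR4A3, an orphan nuclear receptor that contraction is known to induce, had the largest SD, 1.599 on the log2 scale. It read 12.2, 18.4 and 38.0 in the fetus, 384, 254 and 50.6 at 3 days, 54.2, 71.8 and 1732 at 60 days, and 83.5, 377 and 42.6 at 120 days. Its highest arrays at 60 and 120 days, replicates 3 and 2, were those on which ATF3 and JUN were highest.

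GADD45A, which acts in growth arrest and DNA repair, read 2814 on replicate 3 at 3 days, and its other 11 arrays read 45.0 to 677. That is the array with the highest FOS value of the stage, 762, and the lowest ATF3 value, 225. CREM read 1671 on replicate 3 at 60 days and 261 and 475 on replicates 1 and 2, in the order of JUN at that stage. DDIT3, a stress factor related to ATF3, read 27.4, 304 and 205 at 60 days, so that it was highest on replicate 2, while ATF3 was highest on replicate 3.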
